A study of Homo sapiens with 18 samples.

Results

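The 10 genes described here encode the transcriptional switch that opens and closes the cell cycle: the pocket proteins RB1, RBL1 and RBL2, the transcription factors E2F1, E2F2, E2F3, E2F7 and E2F8, and the mitotic factors MYBL2 and FOXM1. They were found by their Ensembl identifiers among the 58302 genes of the count table, and all 10 were listed. RNA-seq was performed in U87MG cells (labelled U87), an established human glioblastoma line. It covered 2 libraries of control cells in normal growth condition, labelled WT, and 2 libraries of Erastin-treated cells (72 h at a dose of 10 μM). Erastin starves cells of cystine by blocking its transporter, and is used to trigger ferroptosis, in which peroxidized membrane lipids kill the cell with the help of iron. Both groups were kept in the same serum-containing medium, and all values come from this 1 cell line. The labels of the control libraries name no vehicle and no culture time, so whether the groups match in these is not known. The labels number the libraries as replicates without saying that they came from separate cultures, so the p-values measure only the spread between these libraries. ChIP-seq and HiChIP samples of the series were not analysed here.

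The pocket proteins bind E2F factors and hold their target genes silent until cyclin-dependent kinases phosphorylate them and release the E2Fs. E2F1, E2F2 and E2F3 then activate the genes of DNA replication, whereas the atypical factors E2F7 and E2F8 bind the same sites without a DP partner and repress them. MYBL2 joins the MuvB core complex and recruits FOXM1 to the genes of G2 and mitosis. MYBL2, E2F1, RBL1, E2F7 and E2F8 are themselves known as E2F-regulated genes, and RBL1 or RBL2 with E2F4 and MuvB form the repressor complex of resting cells known as DREAM.

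Promoters are shown first, since several of the members are known to be regulated by E2F factors. The 100 bases before the start site of 6 members were taken from RefSeq (GRCh38.p14) and are written 5′ to 3′ on the strand of the gene. RBL1, E2F1, MYBL2, E2F3 and E2F7 are shown because their transcripts moved in different directions, and E2F2 because it has an E2F motif but no counts. Capitals mark the E2F motifs TTTCCCGC, TTTGGCGC, TTTCGCGC or TTTGCCGC and the cell cycle homology region (CHR) motif TTTGAA, each searched on both strands, so that GCGGGAAA and GCGGCAAA are motifs of the opposite strand.
RBL1, chr20:37095998-37096097, minus strand: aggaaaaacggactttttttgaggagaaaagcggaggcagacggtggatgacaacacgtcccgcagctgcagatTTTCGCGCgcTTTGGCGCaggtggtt
E2F1, chr20:33686386-33686485, minus strand: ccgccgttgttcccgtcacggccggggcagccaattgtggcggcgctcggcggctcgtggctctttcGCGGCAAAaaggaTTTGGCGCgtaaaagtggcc
E2F2, chr1:23531234-23531333, minus strand: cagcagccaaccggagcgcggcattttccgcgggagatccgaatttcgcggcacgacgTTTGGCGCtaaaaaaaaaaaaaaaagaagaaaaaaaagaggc
E2F3, chr6:20401779-20401878, plus strand: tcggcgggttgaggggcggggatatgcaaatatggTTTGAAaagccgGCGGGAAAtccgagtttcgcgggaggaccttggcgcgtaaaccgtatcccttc
E2F7, chr12:77065570-77065669, minus strand: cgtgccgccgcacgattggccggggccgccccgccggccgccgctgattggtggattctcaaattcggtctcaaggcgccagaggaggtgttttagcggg
MYBL2, chr20:43667014-43667113, plus strand: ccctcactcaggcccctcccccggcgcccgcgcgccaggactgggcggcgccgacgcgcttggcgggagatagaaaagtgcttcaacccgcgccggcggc

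RBL1 held E2F motifs at positions -26 to -19 and -16 to -9 from its start site. E2F1 held motifs at -33 to -26 and -20 to -13, and E2F2 held 1 at -42 to -35. E2F3 held an E2F motif at -53 to -46 beside a CHR motif at -65 to -60. These letters did not occur in the shown bases of E2F7 and MYBL2, which says nothing of other forms of the site. In windows from 250 bases before to 50 bases after the start site, 8 members had 10 windows, and 4 of the 10 held an E2F motif, against 3.31% of 35116 windows of all genes. A CHR motif lay in 2 of the 10, in E2F3 and after the start site of RBL2, against 15.2% of all windows. Among the lists of target genes described further on, 27 of 32 G1/S genes and 33 of 40 G2/M genes had a window. An E2F motif lay in 47.2% of 36 windows of the G1/S list and a CHR motif in 60.5% of 43 windows of the G2/M list. The window listed for RB1 lies 172699 bases inside the gene and is not shown, but is counted among the 10. Also counted are the RBL2 windows, 494 and 1642 bases inside the gene, and the second E2F3 window, 1708 bases inside. E2F8 and FOXM1 have no entry.

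**Figure D1:**
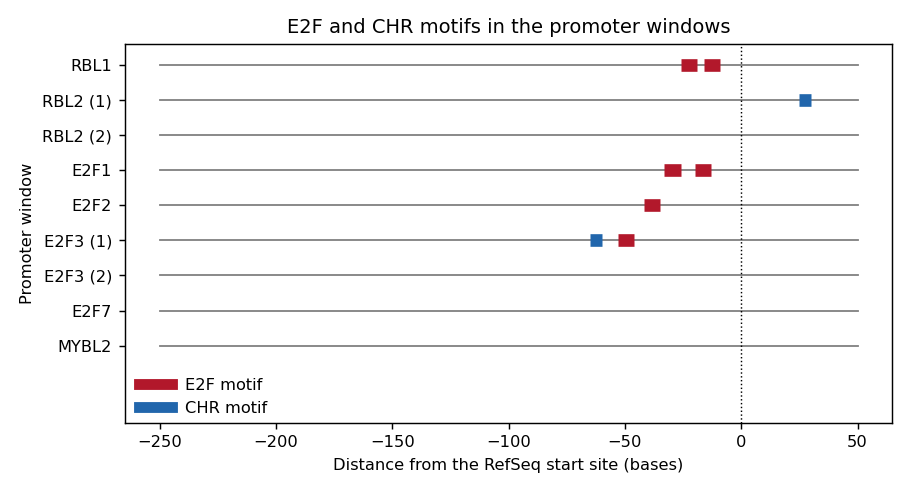
E2F motifs (red) and CHR motifs (blue) in the promoter windows of the members with an entry, leaving out RB1, by distance from the RefSeq start site in bases. Each line is a window, and numbers in brackets name the windows of 1 gene. The RBL2 windows lie 494 and 1642 bases, and the second E2F3 window 1708 bases, inside the gene start used for counting. The E2F motifs of RBL1, E2F1, E2F2 and E2F3 lie between 53 and 9 bases before the start site, and no such motif is drawn for E2F7, MYBL2 or RBL2.

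Between 29412656 and 31513519 reads were counted on genes in each library, with 23519 to 23990 genes counted at least once, and the ranks of the genes were close between replicates (Spearman's rho of 0.992 in both groups). Of 9 markers chosen for the glioma line, VIM, CD44, TNC, FN1 and CHI3L1 had at least 1266 counts in every library, whereas SOX2 and S100B had at most 6 counts and GFAP, the astrocyte filament, between 41 and 81. Of the 7 tested, 4 fell past both thresholds (CHI3L1, TNC, FN1 and NES), against 9.34% of all genes tested. By the adjusted p alone 6 fell (23.7% of all genes), with VIM at a log2 fold change of -0.60 and CD44 at -0.36. NES went from 1277 and 972 counts in control cells to 105 and 77 in Erastin-treated cells. GFAP stood at a log2 fold change of 0.79 (adjusted p = 0.0696). Of 8 markers of other cell types, PTPRC, CD3E, MOG, ALB, RBFOX3 and EPCAM had at most 14 counts, OLIG2 had 59 to 88, and PECAM1, an endothelial gene, went from 138 and 188 counts in control cells to 31 and 33 in Erastin-treated cells. The part of any such change in the results for the members was not tested.

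Erastin-treated cells had less MYBL2, FOXM1, E2F8, E2F1 and RBL1 RNA than control cells, by between 2.25-fold and 7.05-fold, whereas E2F7 and E2F3 were higher and RB1 did not pass the test. Of the 10 members, 9 passed the filter on low counts, and E2F2 had no counts. With both thresholds applied (an adjusted p under 0.05 and a change of 1 or more on the log2 scale), 5 members were lower, against 9.34% of the 16751 genes tested, and 0 were higher, against 6.24%. By the adjusted p alone, 6 members were lower (23.7% of all genes) and 2 were higher (23.2%). The 2 libraries of each group did not overlap in any of the 9: both Erastin libraries lay below both control libraries in 7 members, as in 36.9% of all genes, and above them in 2, as in 36.7%. The median log2 fold change over the 9 members was -1.17, beside -0.00259 over all genes tested. In bulk RNA, fewer cells of a kind (such as cycling cells) and less RNA per cell cannot be told apart. The words "fell" and "rose" are used of genes with an adjusted p under 0.05, and levels are RPKM, counts scaled to library size by the TMM method and divided by merged exon length, so that genes can be compared.

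**Figure D2:**
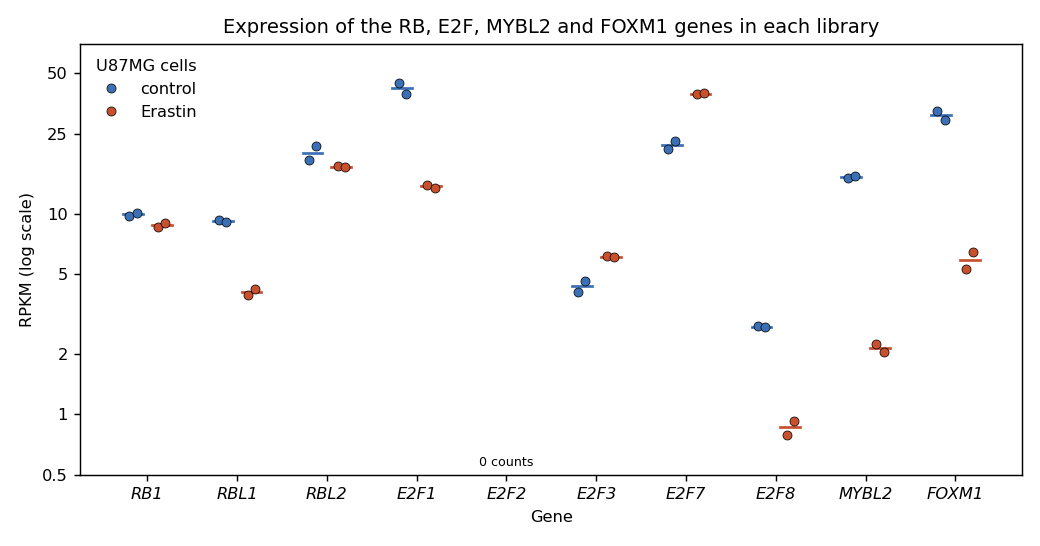
RPKM of each member in each library on a log axis, with control libraries in blue, Erastin libraries in red and a bar at the mean of the 2 libraries. MYBL2 and FOXM1 show the widest gaps between the groups, E2F7 and E2F3 lie higher in the Erastin libraries, and E2F2 has 0 counts throughout.

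MYBL2 (ENSG00000101057, chr20:43667019-43716496, plus strand) encodes B-MYB, which joins the MuvB complex in S phase. It was counted 1273 and 1325 times in control cells and 187 and 179 times in the Erastin libraries, or 15.0 and 15.4 RPKM against 2.25 and 2.05 RPKM. Both Erastin libraries were far below both control libraries, and replicates differed little. The log2 fold change was -2.82 (SE 0.121, 95% interval -3.08 to -2.55, adjusted p = 6.01e-09), which put MYBL2 at position 239 of the 16751 tested genes in order of their fall.

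FOXM1 (ENSG00000111206, chr12:2857681-2877155, minus strand) encodes the forkhead factor that activates mitotic genes such as those of cyclin B and the Polo and Aurora kinases. It had 32.6 and 29.2 RPKM in control cells (4877 and 4439 counts) and 5.30 and 6.41 RPKM in Erastin-treated cells (777 and 986 counts). The log2 fold change was -2.40 (SE 0.0989, adjusted p = 4.46e-09), a level 5.27-fold lower. FOXM1 shares 15.9% of its exon bases with ITFG2, a gene of the opposite strand, and strand was not used in the counting. ITFG2 had 308 and 322 counts in control cells and 594 and 535 in Erastin-treated cells. Reads on the shared bases were assigned to neither gene.

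E2F1 (ENSG00000101412, chr20:33675683-33686404, minus strand) encodes the activator that RB1 binds in G1. Its level was 45.0 and 39.3 RPKM in control cells (3443 and 3053 counts) and 13.9 and 13.5 RPKM in Erastin-treated cells (1039 and 1058 counts). The Erastin libraries differed less from each other than the control libraries did, and the groups were well apart, with a log2 fold change of -1.62 (SE 0.0866, 95% interval -1.81 to -1.43, adjusted p = 3.77e-08).

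E2F3 (ENSG00000112242, chr6:20401906-20493715, plus strand), the other activator with counts, went the opposite way. It had 4.09 and 4.61 RPKM in control cells (646 and 739 counts) and 6.14 and 6.05 RPKM in Erastin-treated cells (948 and 981 counts). The log2 fold change was 0.49 (SE 0.109, 95% interval 0.25 to 0.72, adjusted p = 0.00315), under the threshold on size. In its longest transcript, 20.3% of all 31-base words also occur elsewhere in the genome, and reads that matched several places were left out, so its level is uncertain. Its pseudogene E2F3P2 had at most 10 counts.

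E2F2 (ENSG00000007968, chr1:23506430-23531220, minus strand), the third activator, had 0 counts in all 4 libraries. A count of 0 allows up to 3 counts in a library, or between 0.0175 and 0.0184 RPKM, which covers counting error only, so no comparison was possible.

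The atypical pair split. E2F7 (ENSG00000165891, chr12:77021247-77065580, minus strand), a repressor of G1/S genes, rose from 21.1 and 22.9 RPKM (4065 and 4491 counts) to 39.4 and 39.7 RPKM (7433 and 7857 counts), with a log2 fold change of 0.85 (SE 0.0689, 95% interval 0.69 to 1.00, adjusted p = 1.29e-06). E2F8 (ENSG00000129173, chr11:19224063-19241620, minus strand), its closest relative, fell from 2.76 and 2.72 RPKM (349 and 350 counts) to 0.791 and 0.930 RPKM (98 and 121 counts), with a log2 fold change of -1.67 (SE 0.186, adjusted p = 1.74e-05). The E2F8 estimate rests on the fewest counts of the members tested and has the largest standard error. E2F7 RNA was 7.65 and 8.43 times that of E2F8 per length in control cells and 49.8 and 42.7 times that of E2F8 in Erastin-treated cells.

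The 3 pocket proteins differed in size of change. RBL1 (ENSG00000080839, chr20:36996349-37095995, minus strand), which encodes p107, a partner of the repressor E2Fs, had 9.27 and 9.10 RPKM in control cells (1688 and 1683 counts) and 3.92 and 4.22 RPKM in Erastin-treated cells (699 and 790 counts). Its log2 fold change was -1.17 (SE 0.0935, adjusted p = 1.08e-06).

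RBL2 (ENSG00000103479, chr16:53433977-53491649, plus strand) encodes p130, the pocket protein of resting cells. It had 18.6 and 21.7 RPKM in control cells (4161 and 4925 counts) and 17.3 and 17.0 RPKM in Erastin-treated cells (3787 and 3909 counts). The control libraries were farther apart than the nearer control library was from the Erastin libraries. The change of -0.23 on the log2 scale (SE 0.0802, adjusted p = 0.0329) was not past the threshold when library totals replaced the TMM factors (adjusted p = 0.0915). Without control replicate 2 the log2 fold change was -0.12 (adjusted p = 0.206), and without control replicate 1 it was -0.34 (adjusted p = 8.26e-05). The adjusted p was 0.110 without Erastin replicate 1 and 0.150 without Erastin replicate 2. RBL2 shares 9.85% of its exon bases with ENSG00000279344, which had at most 11 counts in a library, and 8.33% with AKTIP, which had 969 and 1126 counts in control cells and 971 and 903 in Erastin-treated cells.

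RB1 (ENSG00000139687, chr13:48303751-48481986, plus strand), the retinoblastoma protein itself, had 9.76 and 10.1 RPKM in control cells (1841 and 1926 counts) and 8.54 and 9.02 RPKM in Erastin-treated cells (1575 and 1749 counts). The log2 fold change of -0.17 (SE 0.0787, 95% interval -0.35 to -0.0017) did not pass the test (adjusted p = 0.0913). The ratio of RB1 to RBL1 RNA per length was 1.05 and 1.10 in control cells and 2.17 and 2.14 in Erastin-treated cells, and that of RBL2 to RBL1 went from 2.01 and 2.38 to 4.41 and 4.02.

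In control cells the order of the mean levels was E2F1 (42.1 RPKM), FOXM1 (30.9), E2F7 (22.0), RBL2 (20.1), MYBL2 (15.2), RB1 (9.91), RBL1 (9.19), E2F3 (4.35), E2F8 (2.74) and E2F2 (0). The libraries of E2F7 and RBL2 overlapped, and no other neighbours in this order did. In Erastin-treated cells the order was E2F7 (39.5 RPKM), RBL2 (17.1), E2F1 (13.7), RB1 (8.78), E2F3 (6.09), FOXM1 (5.85), RBL1 (4.07), MYBL2 (2.15), E2F8 (0.861) and E2F2 (0). Here the libraries of E2F3 and FOXM1 overlapped. By these values FOXM1, next to E2F1 at the top in control cells, was not told apart from E2F3, while E2F7 took the first place. The lengths were not corrected for bases shared with other genes (15.9% of FOXM1, and 9.85% and 8.33% of RBL2). Nor were they corrected for the 20.3% of E2F3 words that occur elsewhere. These levels are therefore likely too low, and the order of FOXM1 and E2F3, or of E2F7 and RBL2, is uncertain.

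The E2F family as a whole was made up differently in the groups. E2F1 held 38.8% and 34.8% of the summed RPKM of E2F1 to E2F8 in control cells and 12.8% and 12.5% of it in Erastin-treated cells. E2F7 held 18.2% and 20.3% against 36.4% and 36.9%. E2F4, the repressor E2F that works with RBL1 and RBL2, held 30.5% and 31.8% in control cells and 36.6% and 35.7% in Erastin-treated cells. The ratio of E2F7 to E2F1 RNA per length was 0.469 and 0.584 in control cells and 2.84 and 2.95 in Erastin-treated cells, so the more abundant of the pair differed between the groups. The sum of the 3 activators was 49.1 and 43.9 RPKM in control cells and 20.02 and 19.5 RPKM in Erastin-treated cells, and the sum of E2F7 and E2F8 was 23.8 and 25.7 RPKM against 40.2 and 40.6 RPKM.

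**Figure D3:**
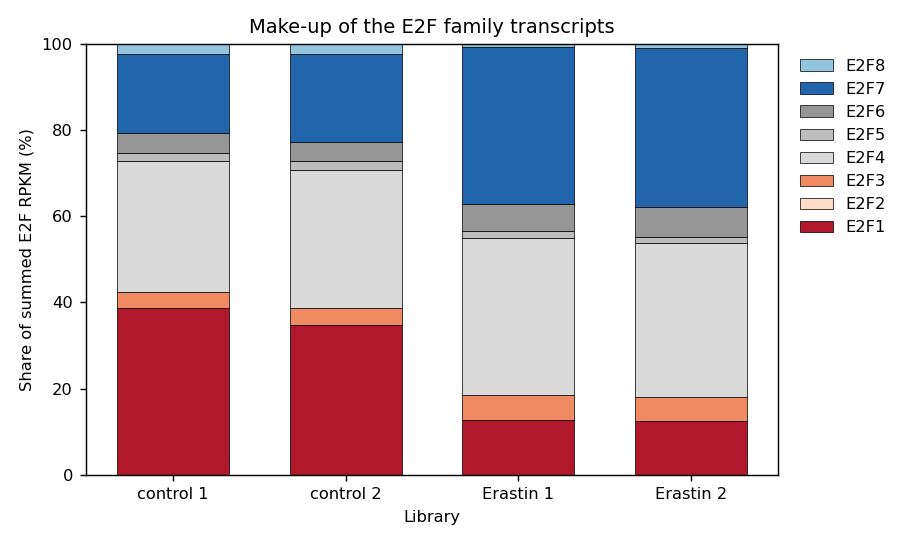
Share (%) of the summed RPKM of E2F1 to E2F8 held by each gene in each of the 4 libraries, stacked to 100%. The share of E2F1 (red, at the base) is 34.8% or more in the control libraries and 12.8% or less in the Erastin libraries, and that of E2F7 (dark blue) is at most 20.3% and at least 36.4%.

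Among the partners of these factors, 5 of the 6 other E2F and DP genes were tested, and none passed both thresholds. By the adjusted p alone 3 fell (23.7% of all genes) and 1 rose (23.2%). TFDP1, which encodes the DP partner that E2F1 to E2F6 need to bind DNA, fell from 103 and 100.4 RPKM to 54.0 and 53.2 RPKM (log2 fold change -0.92, SE 0.0633, adjusted p = 3.14e-07), although 37.6% of its 31-base words occur elsewhere. TFDP2, its relative, fell by 0.51 on the log2 scale (adjusted p = 2.48e-04), as did E2F5, by 0.55 (adjusted p = 0.0104). Of the 31-base words of TFDP2 and E2F5, 12.7% and 8.72% occur elsewhere. E2F6, a repressor that does not bind pocket proteins, rose by 0.46 (adjusted p = 0.00465), although 49.3% of its 31-base words occur elsewhere. E2F4 was at 35.4 and 35.9 RPKM in control cells and 39.6 and 38.3 RPKM in Erastin-treated cells (log2 fold change 0.13, adjusted p = 0.135), and TFDP3 had 0 counts.

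Of the 5 MuvB core genes, which hold MYBL2 or the pocket proteins at promoters, LIN9 alone passed both thresholds, in the lower direction. Of all genes tested 9.34% did so, and 1 of 5 is not far from that share. LIN9 had 276 and 309 counts in control cells and 107 and 106 in Erastin-treated cells, with a log2 fold change of -1.45 (SE 0.193, adjusted p = 7.26e-05). The log2 fold changes of LIN52 (0.30, adjusted p = 0.0605), LIN37 (0.24, adjusted p = 0.653), LIN54 (0.07, adjusted p = 0.675) and RBBP4 (0.05, adjusted p = 0.650) did not pass the test. Of the MYB relatives of MYBL2, MYBL1 fell from 1722 and 1931 counts to 459 and 549 (log2 fold change -1.85, SE 0.107, adjusted p = 7.27e-08), and MYB had at most 8 counts and was not tested.

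Upstream of the pocket proteins, 12 genes of the cyclins and kinases that phosphorylate them, with their activators, were tested. CCNA2 (cyclin A2) and CDK2, its kinase, were lower past both thresholds, and none were higher, where 9.34% and 6.24% of all genes were, so 2 of 12 is not far from the share over all genes. CCNA2 went from 1097 and 1112 counts to 166 and 151 (log2 fold change -2.79, adjusted p = 1.22e-08), and CDK2 from 1552 and 1493 to 487 and 610 (log2 fold change -1.47, adjusted p = 7.33e-07). The D-type kinases moved apart: CDK6 fell by 0.95 on the log2 scale (adjusted p = 2.25e-05), whereas CDK4 rose by 0.40 (adjusted p = 4.19e-04). CCND3 fell by 0.37 (adjusted p = 0.00729) and CCNH, the cyclin of the CDK-activating kinase, by 0.30 (adjusted p = 0.0111). CCND1, CCND2, CCNE1, CCNE2 and CDC25A did not pass the test, with log2 fold changes of 0.17, -0.47, 0.15, -0.58 and -0.10 and adjusted p between 0.0593 and 0.615. CDK7 had 7 to 23 counts (log2 fold change 0.89, adjusted p = 0.326), and 78.5% of its 31-base words lie on alternate scaffolds as well, so its counts are uncertain.

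Of the 7 CDK inhibitors, 3 were tested. CDKN1A, which encodes p21 and restrains CDK2, was the 1 gene higher past both thresholds (6.24% of all genes tested), and 0 were lower (9.34%). It had 6861 and 6426 counts in control cells and 34400 and 36807 in Erastin-treated cells, with a log2 fold change of 2.43 (SE 0.0692, adjusted p = 3.98e-10). CDKN1B (p27) fell by 0.82 on the log2 scale (adjusted p = 1.40e-05) and CDKN2D (p19) by 0.87 (adjusted p = 1.70e-04). By the adjusted p alone, 23.7% of all genes fell. CDKN1C, CDKN2A, CDKN2B and CDKN2C had 0 counts in every library, and for CDKN1C 94.1% of the 31-base words lie on alternate scaffolds as well.

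**Figure D4:**
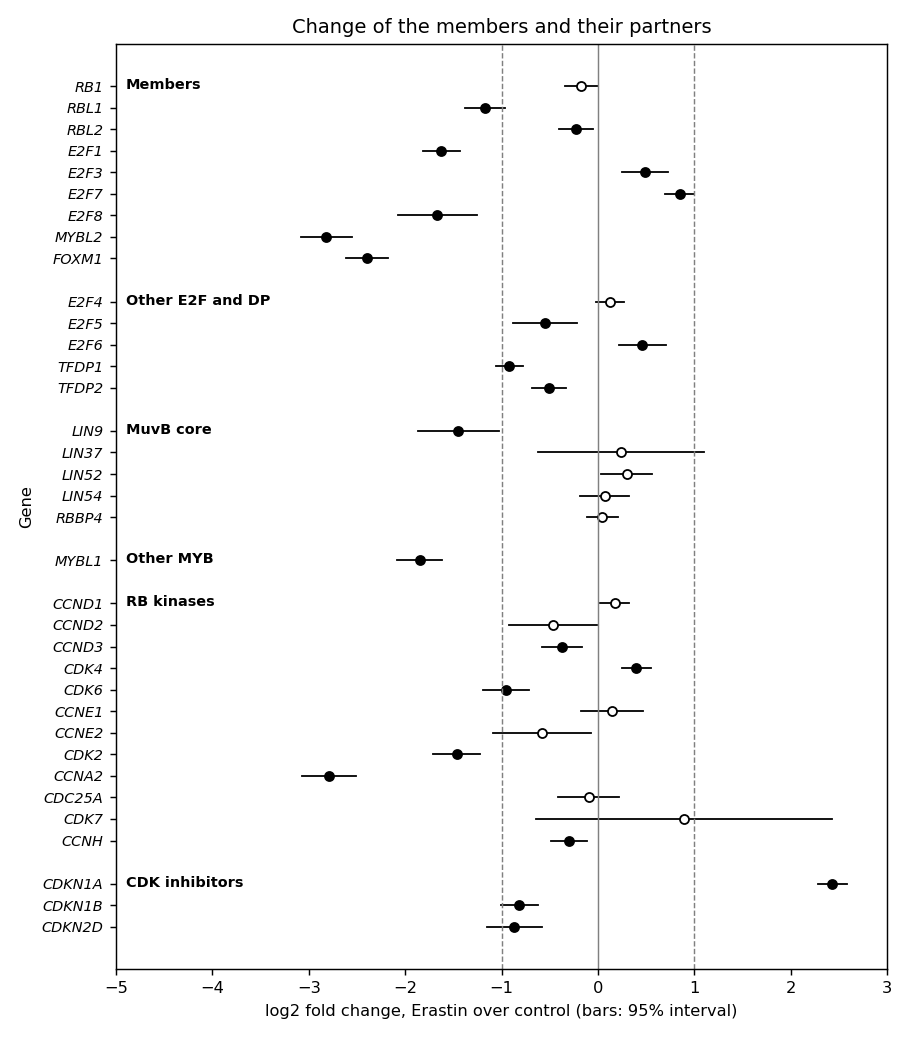
Log2 fold change (Erastin over control) of the members and of the partner genes tested, with 95% intervals as bars and filled points for an adjusted p under 0.05. Dashed lines mark a log2 fold change of 1 in either direction, which MYBL2, FOXM1, E2F8, E2F1, RBL1, LIN9, MYBL1, CDK2, CCNA2 and CDKN1A pass.

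None of the 11 corepressor genes that pocket proteins recruit, such as histone deacetylases, passed both thresholds, and their median log2 fold change was -0.11. Leaving out Erastin replicate 2 gave 1 lower. By the adjusted p alone 3 rose and 4 fell, not far from the shares over all genes of 23.2% and 23.7%. Of 9 genes for kinases, ubiquitin ligase parts and other proteins that modify the E2Fs or FOXM1, 5 passed both thresholds, all lower (9.34% of all genes), and 8 fell by the adjusted p alone (23.7% of all genes). They were PLK1 (log2 fold change -4.51), CCNB1 (-3.82), CDK1 (-2.97), CHEK2 (-1.49) and CCNF (-1.44), of which the first 3 encode kinase subunits that act on FOXM1 and are also its targets. Those 3 genes are counted again in the G2/M list.

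Of 32 G1/S genes known as E2F targets, 24 were lower past both thresholds (9.34% of all genes tested) and 0 were higher (6.24%), and their median was -1.53 on the log2 scale, beside -0.00259 over all genes. The genes with the largest change were TK1 (thymidine kinase, log2 fold change -2.53), MCM5 (a subunit of the replicative helicase, -2.52) and ORC1 (a subunit of the origin recognition complex, -2.36), with adjusted p of 6.40e-09, 5.08e-09 and 4.25e-07. ORC1, for example, was counted 483 and 560 times in control cells and 97 and 105 times in Erastin-treated cells. CCNE1, CCNE2 and CDC25A are in this list as well as among the kinase genes.

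Of 40 G2/M genes known as targets of MYBL2 and FOXM1, 38 were lower past both thresholds (9.34% of all genes tested) and 0 were higher (6.24%), with a median of -3.30. The genes with the largest change were CDC20 (an activator of the anaphase-promoting complex, log2 fold change -4.62), ASPM (a spindle pole protein, -4.58) and DLGAP5 (a spindle protein, -4.53), each with an adjusted p of 5.23e-10 or less. CDC20 had 3514 and 3204 counts in control cells and 142 and 130 in Erastin-treated cells. BUB3 did not pass the test (log2 fold change 0.04, adjusted p = 0.686). The fall in MYBL2 and FOXM1 themselves, -2.82 and -2.40, was smaller in size than this median, and whether the lists differ was not tested.

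**Figure D5:**
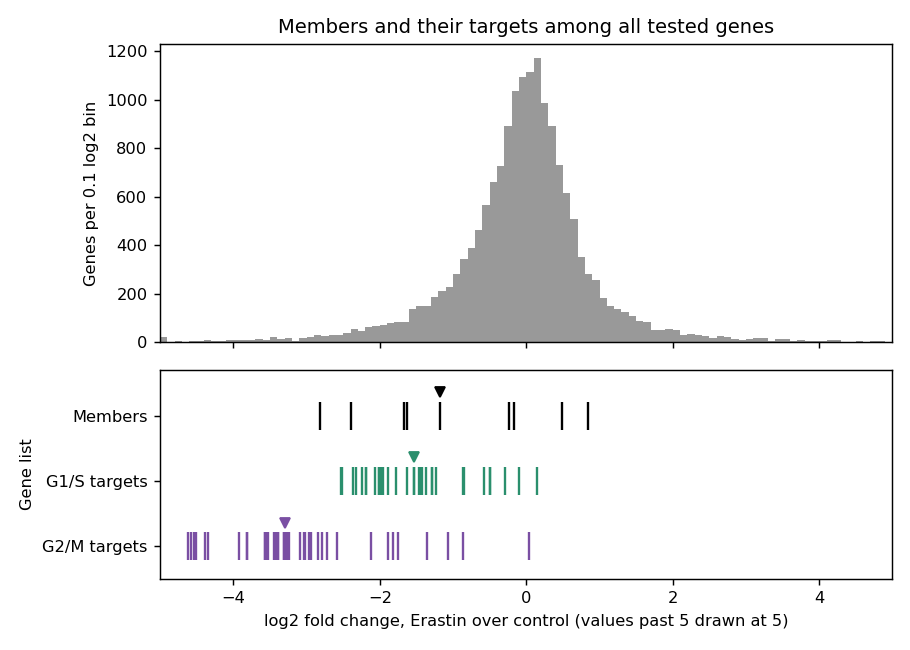
Histogram of the log2 fold change (Erastin over control) of the 16751 tested genes, above the values of the 9 tested members, 32 G1/S targets and 40 G2/M targets as ticks, with triangles at the medians of -1.17, -1.53 and -3.30. The members spread over both sides of 0, whereas nearly all ticks of the target lists lie below it.

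The genes whose pattern was most like that of a member were found by the root mean square distance between centred log2 CPM values over the 4 libraries. CPM are counts scaled to library size by the TMM method and not divided by length, with 0.5 added before the log. The search covered 9500 genes whose mean reached 10 CPM. With 4 libraries in 2 groups such a likeness mostly reflects the size of the group difference, and it is given as a description. Nearest to MYBL2 were KIF23, OLFML2A and CCNA2, at distances of 0.0238, 0.0246 and 0.0333 (log2). KIF23 and CCNA2 are in the G2/M list. Nearest to FOXM1 were NEURL1B, CIITA and POLQ, at 0.0493 to 0.0589, and nearest to E2F1 were INCENP, FEN1 and TBX2, at 0.0344 to 0.0361. FEN1 is in the G1/S list. Nearest to E2F8 were FANCG, GLIPR1 and PAQR5 (0.0232 to 0.0298), and nearest to RBL1 were STX1A, ZNF385D and CCR1 (0.0149 to 0.0227). For E2F7 they were RBM18, ANXA1 and GTPBP10 (0.0150 to 0.0168), and for E2F3 they were ENPP2, ATP6AP2 and UQCC1 (0.00472 to 0.0112). For RBL2 they were PSME2, ING5 and FIGNL1 (0.00459 to 0.0139), and for RB1 they were NSD3, NACA and PCNX2 (0.00765 to 0.00890).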

How the data were processed

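Raw gene-level read counts of the 4 RNA libraries were deposited by the authors with no normalization. Tested for the decimals that an estimated count can have, the values deposited by the authors showed none, so rounding before the test changed no value. Per the file header the table was made by featureCounts 2.0.3 on GRCh38 with Ensembl release 90, without strand, with the reads of a pair counted separately and reads of several genes or places left out (the submitters' processing notes name featureCounts 2.0.4 and HISAT2 2.1.0, and the methods htseq-count). The table holds no comparison of the authors. Gene spans and merged exon lengths came from it, and symbols from GENCODE release 44.

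Libraries were grouped by their labels. In R 4.3.3, edgeR 4.0.16 filtered genes (filterByExpr, minimum count 10), scaled them by TMM and tested Erastin against control by the quasi-likelihood test, two-sided, with Benjamini-Hochberg adjustment over 16751 genes. The biological coefficient of variation was 10.3%. An exact permutation test of 2 against 2 cannot go below 0.333, so p-values rest on a variance shared across genes. In simulated data for this comparison on 16751 genes, edgeR recovered 200 of 200 genes changed by a log2 fold of 2 and called 5 unchanged genes, and DESeq2 1.42.0 recovered 199 and called 0. Intervals cover counting error and replicate spread only, and PCR reads lacking molecular identifiers do not each stand for 1 molecule.

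The members and the gene lists were chosen with earlier results of these data known. Named were all members, every gene of the lists of other E2F and DP, MuvB, MYB, kinase and inhibitor genes, the corepressors and modifiers past both thresholds, the 3 targets of each list with the largest change past both, and the 3 genes nearest to each member. BUB3, the cell markers and overlapping genes were named after their values were seen. Alternatives were RLE size factors, library totals, DESeq2, no count filter, a minimum of 10 counts in each library, a replicate block, counts of read pairs (each count divided by 2), each library left out, and promoter windows before the start site only.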

Additional observations from a re-analysis of the deposited data

How the results depend on the processing

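The 5 members lower past both thresholds (MYBL2, FOXM1, E2F8, E2F1 and RBL1) kept that call under all 7 alternatives with every library kept and in all 4 fits without 1 library, and no member was higher past both thresholds in any of them. By the adjusted p alone 7 or 8 members passed; the exception was RBL2, as given beside its values, and RB1 did not pass in any. In the fits without 1 library (the lone sample of a group being assumed to vary like the other group), the log2 fold change lay between -2.89 and -2.75 for MYBL2, -2.54 and -2.27 for FOXM1, -1.79 and -1.56 for E2F8, -1.73 and -1.53 for E2F1, -1.23 and -1.12 for RBL1, -0.34 and -0.12 for RBL2, -0.21 and -0.14 for RB1, 0.78 and 0.90 for E2F7 and 0.40 and 0.57 for E2F3. Over all genes, 791 to 1160 were higher and 1341 to 1713 lower with every library kept. With the replicate block, 1039 genes were higher (1012 of them also without it) and 1568 lower (1528 shared), and RBL2 had an adjusted p of 0.0154. The labels do not pair the libraries, and the deviations of same-numbered libraries from their group means correlated at 0.0338 across genes. DESeq2 called 903 genes higher (862 shared) and 1411 lower (1374 shared). Library totals moved the median of all genes to 0.0471 and 6 of 20 member levels by more than the replicate SD, such as E2F7 in Erastin-treated cells, at 40.2 RPKM. In bases before the start site only, 2.79% and 13.3% of all windows held an E2F or a CHR motif. The share of G1/S windows with an E2F motif was then 33.3%, and that of G2/M windows with a CHR motif 48.8%. At these depths no level could be given for E2F2.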
